A study of Homo sapiens with 4 samples.

Results

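The genes of tissue factor signalling and plasminogen activation were taken from the count table by symbol: F3, TFPI, TFPI2, THBD, F2R, PLAU, PLAT, PLAUR and SERPINE2. They are 9 of the 61806 genes in the table, each matched 1 row, and all 9 passed the filter on low counts. RNA was sequenced from U118-MG, an established human glioma line kept at 37 °C and 5% CO2 in DMEM and 10% fetal bovine serum, in 4 libraries. Both groups were infected with lentivirus and carry the genotype label WT. The NC group (2 libraries) received the negative control vector and the SPNS2 group (2 libraries) received cDNA of SPNS2, an exporter of sphingosine 1-phosphate, in the overexpression vector pCDH-CMV-MCS-EF1-puro. Whether infected cells were pooled or cloned is not given in the sources used here, and neither is whether replicates are separate cultures. The p-values therefore measure the spread between these libraries, which can be technical. The comparison asks how expression of these genes differs between SPNS2 and NC cells.

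Tissue factor, the product of F3, is a membrane receptor that binds factor VII and starts blood coagulation, and it also signals into the cell that carries it. TFPI blocks the tissue factor complex, and thrombomodulin (THBD) turns thrombin from a clotting enzyme into an activator of the anticoagulant protein C. Urokinase (PLAU), bound to its receptor (PLAUR), and tissue plasminogen activator (PLAT) cleave plasminogen to plasmin, which dissolves fibrin and degrades matrix. Gliomas are known for high tissue factor and urokinase, and both systems have been studied in invasion of this tumour.

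The libraries held 31353373 to 34125159 counts in genes. SPNS2 itself had 42 and 47 counts in NC against 7381 and 8224 in the SPNS2 group, with vector and native transcripts counted together. VIM, CD44 and the mesenchymal genes COL1A1, COL1A2, FN1 and PDGFRB had at least 2116 counts in each library. In the edgeR test VIM (4392 and 6524 CPM in NC and SPNS2), COL1A1 and PDGFRB were higher in SPNS2, while CD44, COL1A2 and FN1 were not called. NES, an intermediate filament gene of neural progenitors, was lower (18.8 and 10.5 CPM, edgeR adjusted p = 0.0243). The glial genes GFAP, S100B, SOX2, OLIG2 and AQP4 had 0 to 8 counts per library, and CPM here are TMM-scaled counts, made comparable between libraries. The 6 endothelial markers summed to 5.05 and 6.27 CPM in NC and 33.1 and 29.4 CPM in SPNS2. Of the 3 that could be tested, 2 rose in edgeR, TIE1 (1.32 CPM in NC, 23.3 CPM in SPNS2) and PECAM1 (3.03 and 6.38 CPM, adjusted p = 0.0465), and KDR was not called, while CDH5 and TEK had 1 to 4 counts in the NC libraries and 0 in the SPNS2 libraries, and CLDN5 had 0 throughout. The 6 leukocyte markers summed to 111 to 130 CPM in NC and 66.5 to 76.7 CPM in SPNS2, nearly all of it CD68, which fell (edgeR adjusted p = 0.0195), with PTPRC at 0 to 10 counts. The 4 epithelial markers summed to 0.812 to 1.25 CPM and the 5 platelet markers to 0.125 to 0.292 CPM over the libraries. The part of these marker genes in the results was not tested. In RNA from whole cultures, fewer cells expressing a gene and less RNA per cell cannot be told apart.

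In SPNS2 cells, 5 of the 9 genes rose (F3, TFPI2, F2R, PLAU and PLAUR), 2 fell (THBD and SERPINE2) and 2 were not called (TFPI and PLAT). A call is an adjusted p under 0.05 in the quasi-likelihood test of edgeR, adjusted by Benjamini-Hochberg over all 17853 tested genes. Of these, 23.4% were called, 12.1% higher and 11.3% lower, and of the 10031 genes whose mean reached 10 CPM, 29.7% were called. The median log2 fold change was 0.73 over the 9 genes and -0.01 over all tested genes, and the median size of change regardless of direction was 0.96 and 0.38. The 9 genes were chosen with earlier results of these data known, so setting them beside all genes is a description and not a test. The plot of levels by library shows each gene in each library.

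**Figure D1:**
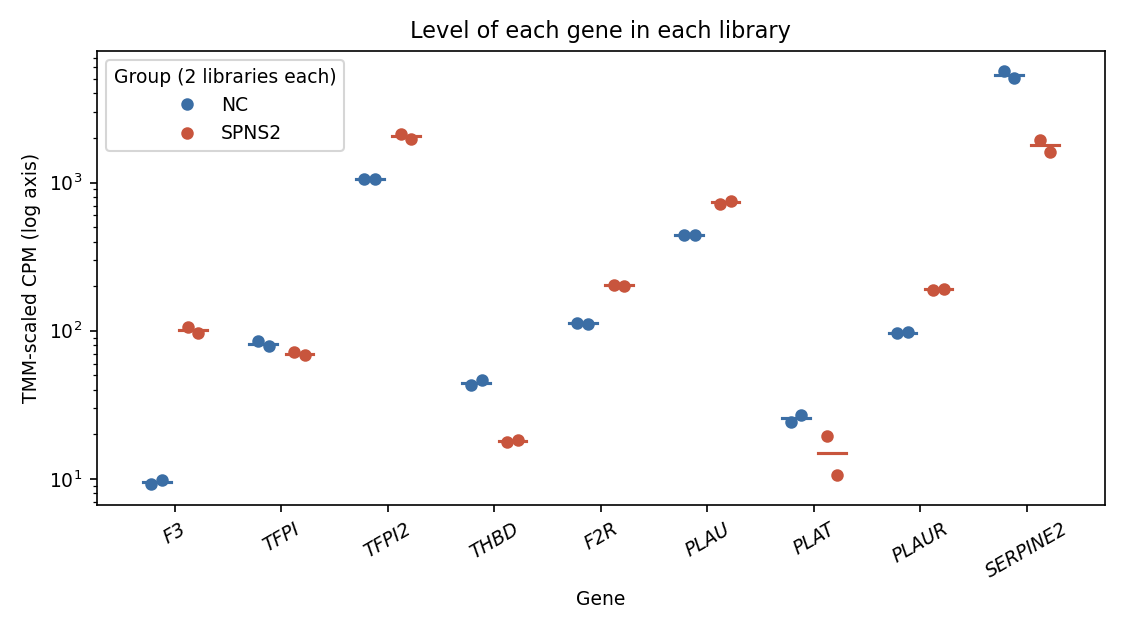
TMM-scaled CPM (y axis, log scale) of the 9 genes (x axis) in the 2 NC and the 2 SPNS2 libraries; each point is a library and each short line the mean of a group. F3 lies near 10 CPM in NC and near 100 CPM in SPNS2, SERPINE2 lies lower in SPNS2, and the 2 SPNS2 points of PLAT stand apart from each other.

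F3, the initiator of coagulation, changed most of the 9 genes. It stood at 9.20 and 9.87 CPM in NC (295 and 332 counts) and at 105 and 97.0 CPM in SPNS2 (3242 and 3236 counts). Every SPNS2 value lay far above both NC values. The means were 9.53 ± 0.47 and 101 ± 5.89 CPM (SD, n = 2), and the log2 fold change was 3.41 (SE 0.10, edgeR adjusted p = 0.000866). Among all tested genes, 3.36% had a larger change in either direction. The gene lies at 94529225 to 94541800 on the minus strand of chromosome 1 (GENCODE 29 on GRCh38), and no annotated gene overlaps it.

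The 250 bases before each transcription start of RefSeq (GRCh38.p14) were searched because several of the genes moved together. Windows were matched for 6 of the 9 genes (F3, TFPI, TFPI2, PLAU, PLAUR and SERPINE2), with a pair of starts each for PLAU and SERPINE2, which gives 8 windows. These starts lie inside the longest GENCODE 29 models, so 6 of the 8 windows lie wholly within the annotated gene and the windows of F3 and TFPI2 partly, with 41 and 238 of 250 bases; the TFPI2 window is thus mostly, and that of PLAUR wholly, exon of a longer transcript. The letters TGANTCA, bound by FOS and JUN dimers and known as the AP-1 motif, occurred in 3 of the 8, those of F3, TFPI2 and PLAUR, and in 6.57% of all 35116 windows of that length. All 3 of these genes rose, but so did PLAU, whose windows hold no such letters. The F3 window is printed 5′ to 3′ on the minus strand up to its first exonic base (chr1:94541801-94542009), and for TFPI2 (chr7:93890824-93890850) and PLAUR (chr19:43670339-43670365), also on the minus strand, the AP-1 letters are shown with 10 bases on each side. Capitals mark the AP-1 letters.
F3: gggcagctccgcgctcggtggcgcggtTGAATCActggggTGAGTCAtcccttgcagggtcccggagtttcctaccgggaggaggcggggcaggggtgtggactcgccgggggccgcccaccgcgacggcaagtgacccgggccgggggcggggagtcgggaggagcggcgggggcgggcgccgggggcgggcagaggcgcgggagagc
TFPI2: tccccgtgcaTGAATCAgccacccctc
PLAUR: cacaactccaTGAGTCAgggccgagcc
The F3 window holds these letters at 223 to 217 and again at 210 to 204 bases before the RefSeq start, the TFPI2 window at 87 to 81 and the PLAUR window at 186 to 180. Letters of the SP1 family (GGGCGG, on either strand) occurred in 5 of the 8 windows and in 42.6% of all windows, with 4 matches in that of F3. The EGR1 letters GCGGGGGCG occurred in the windows of F3 and TFPI2, each time overlapping an SP1 match, and in 4.72% of all windows. TATAAA was found in the window of F3 (10.7% of all), on the strand opposite to the gene. This match lies at 28 to 23 bases before the start, in the exonic bases not printed above. CACGTG occurred in 1 of the SERPINE2 windows, at 87 to 82 bases before that start (6.34% of all). No window held GGAATG, the TEAD letters (11.9% of all), TGACGTCA, the CREB letters (1.65%), or the SRF motif, CC and GG with only A or T at the 6 bases between them (1.16%). Both strands were searched for each motif, and a match describes letters only.

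The inhibitors of this branch did not move together. TFPI stood at 85.0 and 78.7 CPM in NC, against 71.8 and 68.3 CPM in SPNS2. The SPNS2 values lay below the NC values by little more than the gap within NC, and the gene did not pass the test (log2 fold change -0.23, SE 0.08, edgeR adjusted p = 0.103). TFPI2, a Kunitz-type inhibitor related to TFPI that acts mainly on plasmin and other matrix-degrading proteases, was at 1053 and 1052 CPM in NC and at 2125 and 1976 CPM in SPNS2. The NC libraries were nearly equal, and both SPNS2 libraries lay at about the same distance above them. The means were 1053 ± 1.17 and 2050 ± 105 CPM (SD, n = 2), with a log2 fold change at 0.96 (SE 0.05, edgeR adjusted p = 0.002). TFPI lies on chromosome 2 (187464230 to 187565760) and TFPI2 on chromosome 7 (93885396 to 93890991), both on the minus strand. Genes of the opposite strand overlap both, AC007319.1 at TFPI with 1 to 29 counts and GNGT1 and AC002076.1 at TFPI2 with 0 to 16 counts per library, so reads of these partners could not be told apart without a stated strand setting but are few beside 2210 or more counts of TFPI and 33770 or more of TFPI2.

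The thrombin receptors moved in opposite directions. THBD fell, from 42.8 and 46.3 CPM in NC to 17.6 and 18.4 CPM in SPNS2. The groups did not overlap, and each was narrow beside the distance between them. The means were 44.5 ± 2.48 and 18.01 ± 0.52 CPM (SD, n = 2), with a log2 fold change at -1.31 (SE 0.10, edgeR adjusted p = 0.00388). THBD is a gene on chromosome 20 (23045633 to 23049741, minus strand) with no overlapping gene. F2R encodes protease-activated receptor PAR1, which signals when thrombin or another protease cuts its outer end. It was at 113 and 111 CPM in NC (3637 and 3751 counts) and rose to 204 and 201 CPM in SPNS2 (6282 and 6692 counts). The libraries of each group agreed within 1.02-fold, and the log2 fold change was 0.85 (SE 0.06, edgeR adjusted p = 0.00292). F2R lies on the long arm of chromosome 5 (76716043 to 76735781, plus strand), where the median log2 fold change of 701 tested genes was 0.43 and 34.1% rose. With the median of each arm removed, F2R stood at 0.41 and was still called (edgeR adjusted p = 0.0148).

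Both parts of the urokinase system rose. PLAU stood at 442 and 444 CPM in NC and reached 716 and 757 CPM in SPNS2. The spread within SPNS2 was wider than within NC, but all SPNS2 values were higher. The means were 443 ± 1.73 and 737 ± 29.3 CPM (SD, n = 2), with a log2 fold change at 0.73 (SE 0.05, edgeR adjusted p = 0.00313). PLAUR, its receptor, was at 96.2 and 97.6 CPM in NC and at 189 and 191 CPM in SPNS2. Its libraries agreed within 1.01-fold in either group, and its log2 fold change was 0.97 (SE 0.06, edgeR adjusted p = 0.00228). PLAU lies on chromosome 10 (73909177 to 73917497, plus strand) and PLAUR on chromosome 19 (43646095 to 43670547, minus strand). C10orf55, on the opposite strand within PLAU, had 65 to 82 counts per library against 14164 or more for PLAU.

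The other plasminogen activator, PLAT, stood at 24.1 and 27.2 CPM in NC, against 19.4 and 10.6 CPM in SPNS2. Both SPNS2 values were lower, but they differed from each other 1.83-fold, the widest gap within a group among the 9 genes. PLAT was not called (log2 fold change -0.78, SE 0.31, edgeR adjusted p = 0.152). Without SPNS2 replicate 1 the value was -1.26 and the gene was called lower (edgeR adjusted p = 0.0329), and without SPNS2 replicate 2 it was -0.40 (edgeR adjusted p = 0.195). PLAT lies on chromosome 8 (42175233 to 42207724, minus strand) with no overlapping gene.

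SERPINE2 (protease nexin 1), a secreted serpin that inhibits thrombin, urokinase and plasmin, fell most of the 9 genes. It stood at 5641 and 5059 CPM in NC (180837 and 170244 counts) and at 1955 and 1614 CPM in SPNS2 (60166 and 53835 counts). The lower NC value was still more than 2 times the higher SPNS2 value. The means were 5350 ± 411 and 1784 ± 241 CPM (SD, n = 2), a 3-fold fall (log2 fold change -1.58, SE 0.11, edgeR adjusted p = 0.00332). By reads alone, which favour long transcripts, it ranked 4 of all genes in NC and 39 in SPNS2. The gene lies on chromosome 2 (223975112 to 224039319, minus strand) with no overlapping gene.

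Per kilobase of annotated exon, the order of the 9 levels differed between the groups. In NC, SERPINE2 was highest at 602 ± 46.3 CPM per kb, followed by TFPI2 (393 ± 0.44), PLAU (150 ± 0.59), F2R (27.7 ± 0.34), PLAUR (21.7 ± 0.23), THBD (10.8 ± 0.60), TFPI (6.99 ± 0.38), PLAT (3.87 ± 0.33) and F3 (3.32 ± 0.16). F3 was thus the lowest of the 9 in NC. In SPNS2, TFPI2 came first at 765 ± 39.2 CPM per kb, before PLAU (250 ± 9.92), SERPINE2 (201 ± 27.1), F2R (49.8 ± 0.61), PLAUR (42.6 ± 0.33), F3 (35.2 ± 2.05), TFPI (5.98 ± 0.21), THBD (4.38 ± 0.13) and PLAT (2.26 ± 0.94). F3 had moved from place 9 to place 6, and SERPINE2 from place 1 to place 3. No neighbours in either order overlapped between their libraries, but the exon lengths join all annotated transcripts of a gene, so the order of close neighbours such as PLAT and F3 in NC depends on which transcripts the cells use.

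Ratios between pairs of genes from this set were compared between libraries, where transcript length cancels. The read ratio of F3 to TFPI was 0.108 and 0.125 in NC, against 1.47 and 1.42 in SPNS2, a 12.4-fold change. Against THBD, F3 changed 26.2-fold (0.215 and 0.213 in NC, 5.97 and 5.28 in SPNS2), and against TFPI2 5.45-fold (0.00874 and 0.00938 in NC, 0.0496 and 0.0491 in SPNS2). Reads of F3 gained relative to those of all 3 genes in every SPNS2 library. The ratio of PLAU to SERPINE2 was 0.0783 and 0.0878 in NC and 0.366 and 0.469 in SPNS2, a 5-fold change. PLAU against PLAT went from 18.3 and 16.4 to 37.0 and 71.6, with the wide SPNS2 gap of PLAT in it. PLAU against its receptor PLAUR showed the smallest change of the 6, 0.847-fold (4.59 and 4.55 in NC, 3.79 and 3.96 in SPNS2). Each of the 6 ratios gave an exact two-sided permutation p of 0.333, the smallest that 2 against 2 libraries can give, so this test could not separate the groups. Every pair holds F3 or PLAU, both called above, so the ratios restate those changes and are not further evidence.

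**Figure D2:**
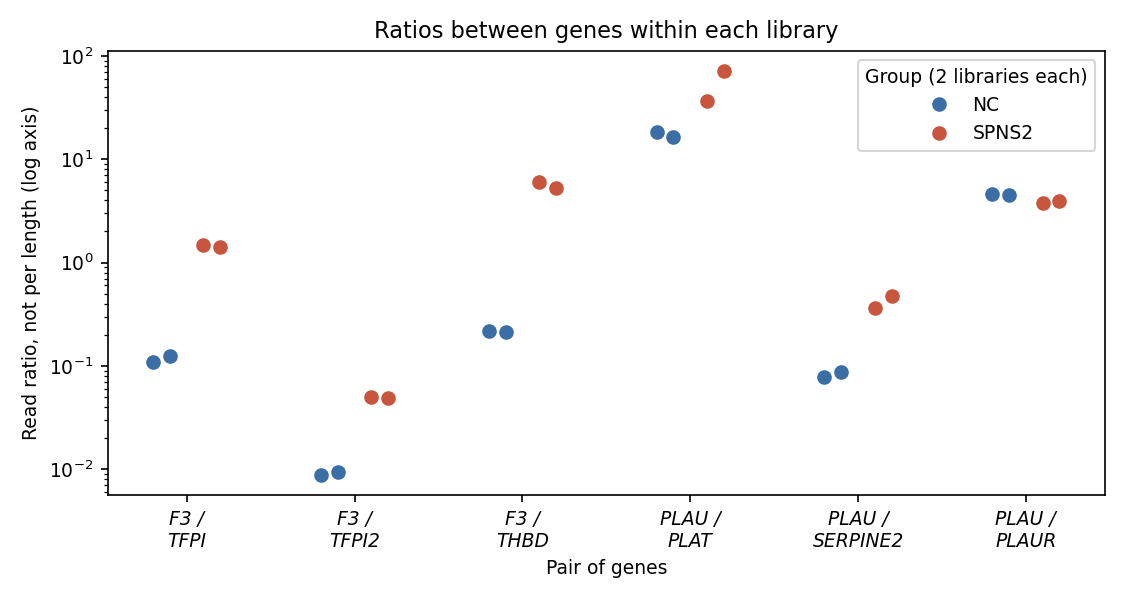
Read ratio of 6 gene pairs (x axis) within each library (y axis, log scale, not corrected for length, so only the groups of a pair can be compared); each point is a library. The ratios with F3 as numerator and that of PLAU to SERPINE2 lie well apart between the groups, from a 5-fold to a 26.2-fold change.

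The genes lie on 8 chromosomes, and their arms were not all neutral in this comparison. PLAU rose on an arm (10q) whose median log2 fold change was -0.24, and stood at 0.97 with that median removed. SERPINE2 and TFPI share the arm 2q, with a median of -0.15. The arms of F3, TFPI2, PLAUR, PLAT and THBD had medians of 0.04, 0.06, 0.08, 0.16 and 0.18. All 7 calls held with the arm medians removed. Among the 5 tested genes on each side of F3, 4 rose and 2 fell, with a median of 0.03. ABCD3, the gene 10.6 kb away, rose by a log2 fold change of 0.36 (edgeR adjusted p = 0.0396). ARHGAP29, 254 kb away, rose most of them, by 3.23 (edgeR adjusted p = 0.00059) beside 3.41 for F3. Among the flanking genes of TFPI2, 3 rose and 1 fell (median 0.42). GNG11, a G protein gamma subunit gene 30.7 kb away, went from 236 ± 2.84 to 467 ± 12.2 CPM (log2 fold change 0.99, edgeR adjusted p = 0.002). Among the flanking genes of SERPINE2, 2 rose and 3 fell (median -0.42). The nearest, MRPL44 at 7.4 kb, was not called. WDFY1 at 29.7 kb fell from 149 ± 5.57 to 79.3 ± 7.59 CPM (edgeR adjusted p = 0.00653), and SCG2 at 373 kb rose from 0.73 ± 0.19 to 6.20 ± 0.93 CPM (edgeR adjusted p = 0.00634). Around TFPI 1 flanking gene rose and 3 fell, around THBD 2 rose and 0 fell, and around F2R 2 rose and 1 fell. Around PLAU 1 rose and 2 fell, around PLAT 0 rose and 2 fell, and around PLAUR 2 rose and 1 fell. Over all tested genes, 12.1% rose and 11.3% fell.

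**Figure D3:**
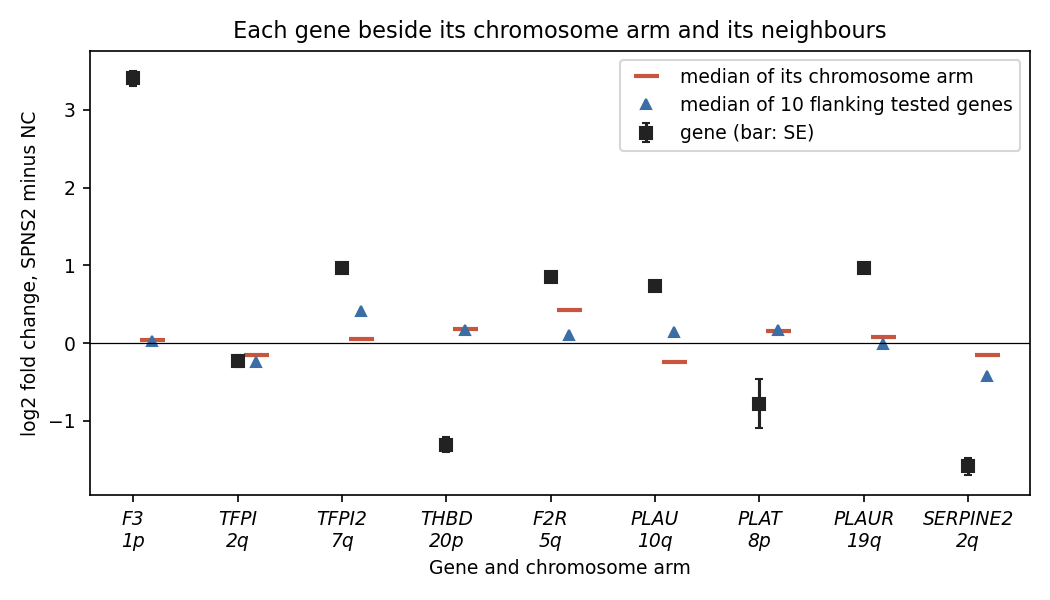
Log2 fold change of each of the 9 genes (squares, bars are SE), the median of its chromosome arm (dashes) and the median of the 10 tested genes that flank it (triangles). TFPI lies close to its arm and its neighbours, and the other 8 genes lie apart from both.

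The rest of the pathway was read from 6 lists of 44 further genes, of which 22 were tested. In these, 1 rose, 6 fell and 15 were not called, with a median log2 fold change of -0.26. Over all tested genes, 12.1% were called higher and 11.3% lower. Several proteins that the products of the 9 genes act on or bind had no detected transcript. Factor VII (F7), factor IX (F9), factor X (F10), factor XI (F11), the fibrinogen chain FGA and plasminogen (PLG) had 0 counts in all 4 libraries, which allows up to 0.0892 to 0.0975 CPM per library, and prothrombin (F2) had 8 counts in 1 NC library and 0 in the others. Of the 16 coagulation factors, 5 were tested, and 0 rose and 2 fell by the edgeR test. The fibrinogen gamma chain gene FGG had 196 and 195 counts in NC and 0 in SPNS2, at least 127-fold lower when the group is set to a floor of 3 counts (edgeR adjusted p = 0.00378). VWF, the platelet adhesion protein of endothelium, was at 53 and 53 counts in NC and 12 and 4 in SPNS2 (edgeR adjusted p = 0.0465). The call of VWF was lost without NC replicate 1 (adjusted p = 0.153), NC replicate 2 (0.143) or SPNS2 replicate 2 (0.0901), with arm medians removed (0.0615) and without a low-count filter (0.0579). F8 was at 22.03 ± 4.18 and 16.7 ± 2.14 CPM (adjusted p = 0.201).

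None of the 3 tested anticoagulant genes was called in edgeR: protein S (PROS1) was at 111 ± 23.5 and 95.2 ± 36.7 CPM and the protein C receptor PROCR at 60.1 ± 1.09 and 52.0 ± 6.90 CPM. Of the other protease-activated receptors, F2RL2 was the 1 that could be tested. It lies 92.6 kb from F2R and fell while F2R rose, from 14.5 ± 1.85 to 8.33 ± 0.80 CPM (log2 fold change -0.80, SE 0.17, edgeR adjusted p = 0.0371). That call was lost when NC replicate 1, NC replicate 2, SPNS2 replicate 1 or SPNS2 replicate 2 was left out (adjusted p = 0.0768, 0.142, 0.13 and 0.0912), and without a low-count filter (0.0529).

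Among the 4 inhibitors of plasminogen activation and fibrinolysis reported here, 2 were tested and neither was called in edgeR. SERPINB2, which inhibits urokinase, was at 649 ± 215 and 749 ± 12.5 CPM. Its NC libraries held 15932 and 26971 counts, and without NC replicate 2 it was called higher (log2 fold change 0.59, adjusted p = 0.0255), while without NC replicate 1 it was at -0.10. The neuroserpin gene SERPINI1 was at 6.12 ± 0.25 and 6.75 ± 2.06 CPM (adjusted p = 0.741).

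Against a share of 12.1% higher and 11.3% lower over all tested genes, 1 of 5 tested genes for plasminogen and its docking sites rose. This was ENO1, a glycolytic enzyme that also binds plasminogen at the cell surface, which went from a mean of 2275 to one of 3355 CPM (log2 fold change 0.56, SE 0.04, edgeR adjusted p = 0.00419). Annexin A2 (ANXA2, 1262 ± 107 and 1403 ± 7.33 CPM) and its partner S100A10 (221 ± 1.27 and 202 ± 15.3 CPM), which hold plasminogen at the membrane, were not called, and neither was the plasminogen receptor PLGRKT (11.9 ± 0.75 and 14.7 ± 3.97 CPM). With arm medians removed ANXA2 was called higher, at 0.37 in place of 0.15 (adjusted p = 0.0319). Of 6 tested genes for receptors that clear complexes of proteases with inhibitors, or for their chaperone, 0 rose and 3 fell in edgeR. LRP1, the main such receptor, went from 1080 ± 58.3 to 875 ± 15.7 CPM (log2 fold change -0.30, edgeR adjusted p = 0.0255), its chaperone LRPAP1 from 99.8 ± 0.95 to 64.0 ± 0.30 CPM (-0.64, edgeR adjusted p = 0.00588) and VLDLR from 7.08 ± 0.04 to 3.57 ± 0.68 CPM (-0.99, edgeR adjusted p = 0.0391). With arm medians removed LRPAP1 stood at -0.34 in place of -0.64 (adjusted p = 0.0286). The call of LRPAP1 held there and without each library in turn. That of LRP1 was lost without NC replicate 1 (adjusted p = 0.0858), SPNS2 replicate 1 (0.0898) or SPNS2 replicate 2 (0.0672) and with arm medians removed (-0.18, adjusted p = 0.0892), and that of VLDLR without NC replicate 1 (0.127), NC replicate 2 (0.129), SPNS2 replicate 1 (0.112) or SPNS2 replicate 2 (0.059) and without a low-count filter (0.0587). LRP8 (adjusted p = 0.0657), IGF2R (0.0578) and MRC2 (0.569) were not called. IGF2R was called lower under 5 alternatives (adjusted p = 0.0292 to 0.0446) and LRP8 in DESeq2 (0.0173) and 1 other.

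**Figure D4:**
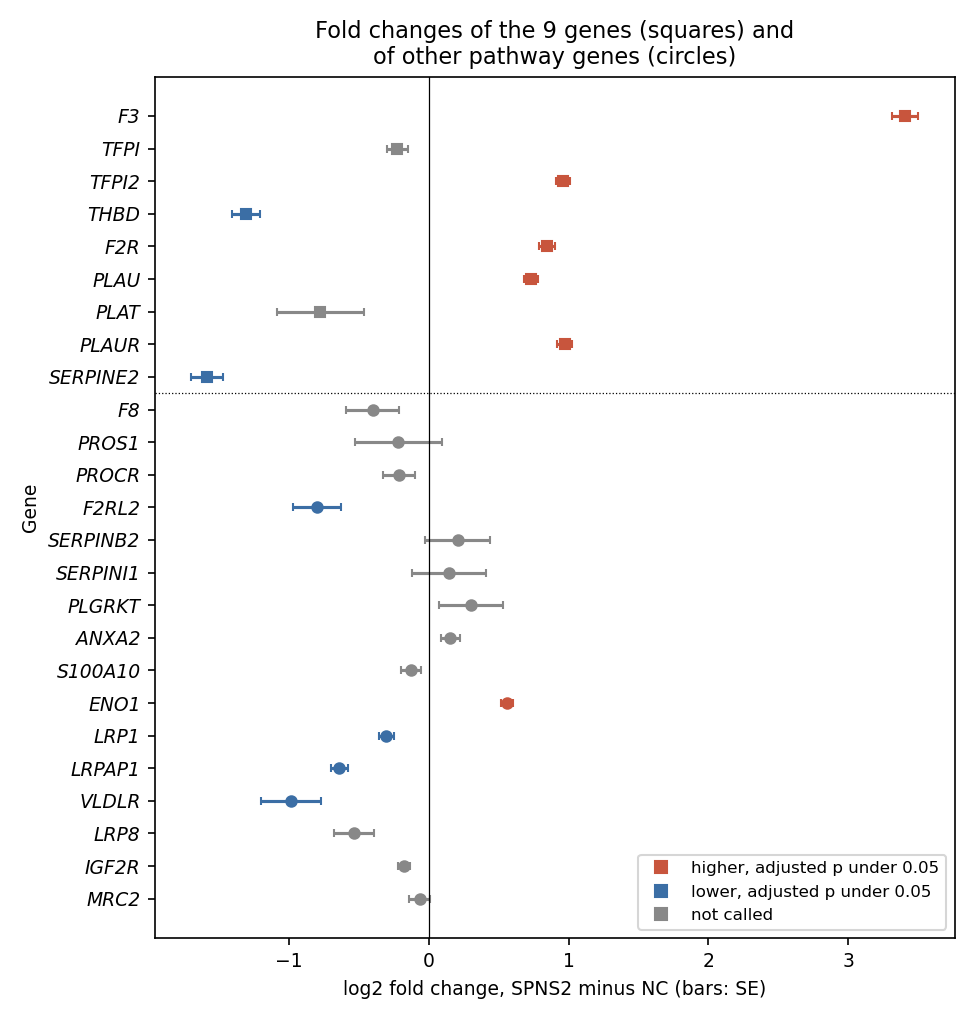
Log2 fold change with its SE (x axis) of the 9 genes (squares) and of the 16 tested genes of the wider lists with at least 5 CPM in either group other than FGG (circles), coloured by call in the edgeR test. F3 stands at 3.41, SERPINE2 at -1.58 and THBD at -1.31, and of the other pathway genes ENO1 is the 1 called higher.

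The genes whose pattern over the 4 libraries was most like that of F3 were MAGEC2, DNAH6 and ARHGAP29, by the root mean square distance of centred log2 CPM (0.0828, 0.0950 and 0.0957) among 11720 genes with a count in every library and at least 5 CPM in either group. ARHGAP29, a gene for a GTPase-activating protein, lies 254 kb from F3 and went from 18.2 ± 0.35 to 171 ± 1.997 CPM. MAGEC2, a cancer-testis gene, went from 15.8 ± 0.69 to 166 ± 1.33 CPM and DNAH6, a dynein heavy chain gene, from 0.99 ± 0.07 to 9.81 ± 1.62 CPM. Most like SERPINE2 were OSR2, LRRC34 and NPAS2, at distances of 0.0212, 0.0286 and 0.0377 and with log2 fold changes of -1.58, -1.59 and -1.56. With 4 libraries in 2 groups, such likeness is mainly a like fold change.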

How the data were processed

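The authors deposited raw counts, whole numbers per Ensembl gene without normalization, in 1 column for each library; 1 row of text without counts was left out. The submitters' processing notes name the build hg38 and the tools HISAT2 2.2.1, featureCounts 0.3 and Trim Galore 0.6.9. The sources used here do not give the annotation release, the strand setting or the treatment of multi-mapped reads, so overlapping genes may share reads. Genes were kept by filterByExpr (minimum count 10, minimum total 15), scaled by TMM and tested for SPNS2 against NC in edgeR 4.0.16 (R 4.3.3) with its two-sided quasi-likelihood test and group as the only term. SE is the log2 fold change divided by the square root of F. Unless another tool is named, adjusted p-values are from this test. Positions, exon lengths and arms (divided at approximate centromeres) came from GENCODE 29, on the same assembly as hg38; 17382 tested genes had a position. Floors of 3 counts cover counting error only.

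Named genes were the 9 genes, those of the wider lists with at least 5 CPM in either group, up to 3 further called genes per list, and the 3 nearest patterns to F3 and to the called gene with the lowest fold change. The genes and lists were chosen with earlier results of these data known. Alternatives were DESeq2 1.42.0, limma-voom (limma 3.58.1), a robust edgeR fit, upper-quartile or RLE factors, totals without factors, a low filter of 1 CPM on the mean or none, leaving out each library, a replicate block, arm medians removed and, for ratios, 1 added to each count. A gene of the wider lists, with a ratio that uses it, is not reported here. After a first look at the output, an NF-kB motif was dropped from the promoter search, and a small offset was taken out of the log2 CPM behind the nearest patterns, since the naming rule has none.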

Additional observations from a re-analysis of the deposited data

How the results depend on the processing

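The 5 rises and 2 falls among the 9 genes held in direction and call under all 14 alternatives run; the 1 change of call among the 9 was that of PLAT, given above. With a library left out, the number of the 9 called higher stayed at 5 and the number called lower was 2 to 3. The log2 fold change of F3 ranged from 3.35 to 3.47, that of SERPINE2 from -1.71 to -1.44 and that of F2R from 0.41 (arm medians removed) to 0.86. In the wider lists, 6 genes were called lower; the number was 3 without a low-count filter, 3 with the replicate block, 2 to 3 with a library left out and 5 with arm medians removed, and 7 in DESeq2, limma-voom, robust edgeR and with upper-quartile factors or library totals. The block kept 2 of the 6 (FGG and LRPAP1), added LRP8 (adjusted p = 0.0478) and ended the calls of VWF (0.0868), F2RL2 (0.0633), LRP1 (0.0653) and VLDLR (0.0825). The extra call was LRP8 in DESeq2 and IGF2R in the other 4. The 1 called higher became 2 with arm medians removed and was 1 to 2 with a library left out. With a library left out, values crossed 0 for PROS1 (-0.66 to 0.13), SERPINB2 (-0.10 to 0.59), SERPINI1 (-0.21 to 0.44) and MRC2 (-0.14 to 0.015), none of them called with all libraries. The cause was not tested. The ratios kept their direction throughout. Samples that share a replicate number did not deviate together across genes (correlation -0.0778). This value cannot exclude a pairing that affects some genes. With the replicate block 1976 genes were called in all against 4171. Leaving a library out assumes that the lone sample varies like the other group. Low counts limit F2, VWF and the markers at a few counts.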

Other observations

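Genes near those described also differed between the groups, in values not given above. Near F3, BCAR3, an adaptor of focal adhesions 682 kb away, went up from 81.6 ± 5.60 CPM to 173 ± 18.7 (edgeR adjusted p = 0.00616), and CNN3, an actin-binding calponin 355 kb away, from 210 ± 5.37 to 356 ± 2.75 CPM (edgeR adjusted p = 0.0031). TMEM56, 576 kb away, went the other way, from 14.02 ± 0.37 to 6.43 ± 0.78 CPM (edgeR adjusted p = 0.0147). IQGAP2, a scaffold protein gene 7.91 kb from F2R, rose from 0.81 ± 0.05 to 5.35 ± 0.06 CPM (edgeR adjusted p = 0.00451). Near PLAT, which was not called, the ankyrin gene ANK1 (278 kb away) fell from 52.8 ± 4.91 to 8.95 ± 0.07 CPM (edgeR adjusted p = 0.00153). These neighbours were singled out after their values were seen.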
